A study of Mus musculus with 2 samples.

Results

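The genes examined were 9 enzymes and enzyme subunits of the tricarboxylic acid (TCA) cycle, namely Cs, Idh2, Idh3a, Idh3g, Ogdh, Suclg1, Sucla2, Fh1 and Mdh2. They were found by their gene symbols, old or current, in the annotation of a mouse oligonucleotide array, and not by their values. Each had 1 probe, so 9 of the 23473 gene probes were examined, and all 9 were detected in both channels of both arrays. They were read against 17482 genes or unnamed probes that were detected in the same way, 12778 of them with a gene symbol.

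RNA came from hearts of mice aged 3 months. The transgenic (TG) mice carried alpha MHC/mir-143/145, in which the cardiomyocyte-specific alpha myosin heavy chain promoter drives the human microRNAs miR-143 and miR-145. There were 2 TG lines, L9 and L19, with 1 array each, and each array compared 1 TG heart RNA, labelled with Cy3, with heart RNA of non-transgenic (NTG), wild-type origin, labelled with Cy5. The series describes 1 control mouse per array, while a legend of the study refers to an average over NTG mice, so whether the NTG RNA was of 1 mouse or pooled is not settled. The NTG RNA carried the same name on both arrays and was counted as 1 control sample. The dyes were not swapped, so a dye bias of a probe and a difference between TG and NTG cannot be told apart. The lines were made in B6D2F1 eggs and backcrossed to C57BL/6 J, and the study describes the hearts of both lines as dilated. Since whole hearts were used, fewer cells of a type and less RNA per cell cannot be told apart.

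The TCA cycle runs in the mitochondrial matrix. It oxidises the acetyl group of acetyl-CoA, made from fatty acids, glucose and ketone bodies, to carbon dioxide, and passes the electrons to the respiratory chain as NADH and reduced flavin. Citrate synthase opens the cycle, and isocitrate dehydrogenase and oxoglutarate dehydrogenase are its main points of control. The heart, which draws most of its energy from fatty acid oxidation, is among the tissues richest in these enzymes.

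Values are given as the log2 ratio of TG over NTG on 1 array, after each array was scaled so that the median ratio over all detected probes was 1. A log2 ratio of 0 is the NTG level. Signals are in arbitrary units, and expression was not ranked between genes by them. Signals of different probes were used together to pick genes of like signal and in the sums over marker lists, where bright probes weigh most. Errors are SDs over the 2 lines, which share the NTG RNA, so that the spread of NTG hearts is not in any of them.

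Of the 9 enzymes, 8 lay below NTG in both lines and 1, Sucla2, lay above NTG in both, although only 5 lay below after loess (a normalization along signal) and 1 after normexp (a model-based background correction). Among all 17482 genes, 38.4% were below NTG in both lines and 35.5% were above, without loess or normexp. These shares were not counted after loess or normexp, so the 5 and the 1 have no share beside them. After normexp the median log2 ratio of 489 genes of like signal also lay above NTG, at 0.41. Most of the 8 differences were small. Only Sucla2 was past 1.5-fold in both lines, as were 5.21% of all genes in the upward direction (10.6% in L9 and 9.78% in L19), and no enzyme was under 1/1.5 in both lines, against 3.03% of all genes. Ogdh and Cs were under 1/1.5 in L9, against 7.47% of all genes, and none of the 9 was so in L19, against 7.6%. In limma with Benjamini-Hochberg adjustment over all 17482 genes, no enzyme and no gene reached an adjusted p of 0.05 (0% in either direction), and the smallest adjusted p of any gene was 0.0855. At an unadjusted p of 0.05 limma called 1 enzyme higher (Sucla2) and 2 lower (Cs and Ogdh), beside 15.7% of all genes higher and 14.4% lower.

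**Figure D1:**
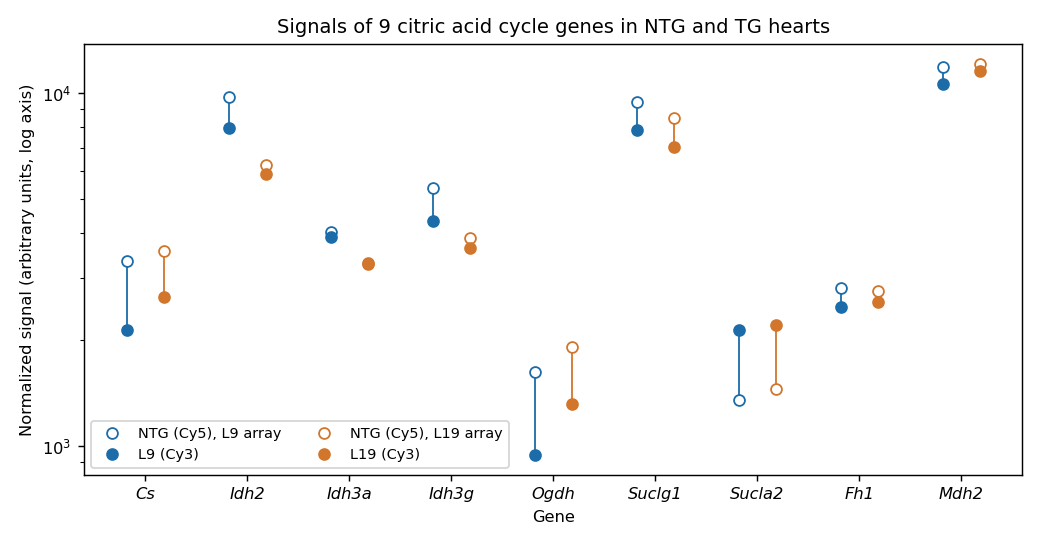
Normalized signal of each of the 9 enzymes on a log axis, with the NTG channel (open circles) joined to the TG channel (filled circles) of the same array, L9 in blue and L19 in orange. The TG signal of Sucla2 stands above the NTG signal on both arrays, and the other 8 TG signals stand at or below it, which for 6 of them turns to above after normexp.

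The sequences just before the transcription starts of the 3 genes with the widest ratios, Sucla2, Ogdh and Cs, are shown because Ogdh and Sucla2 catalyse consecutive steps and lay on opposite sides of NTG, with Cs beside Ogdh. Each is the 250 bases before a start in RefSeq on build GRCm38.p6. The capitals mark, in Sucla2, a core of the binding motif of nuclear respiratory factor 1 (NRF1, a regulator of nuclear genes for mitochondria), written GCGCNTGCG, and in Ogdh a cyclic AMP response element (CRE), written TGACGTCA. The Sucla2 stretch is chr14:73552536-73552785 (plus strand), the Ogdh stretch chr11:6291347-6291596 (plus strand) and the Cs stretch chr10:128337477-128337726 (plus strand).
Sucla2: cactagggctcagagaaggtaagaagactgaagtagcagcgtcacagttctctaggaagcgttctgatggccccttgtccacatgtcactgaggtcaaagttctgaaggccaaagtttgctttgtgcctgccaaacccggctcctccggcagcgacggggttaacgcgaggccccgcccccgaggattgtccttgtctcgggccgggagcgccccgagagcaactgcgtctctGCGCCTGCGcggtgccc
Ogdh: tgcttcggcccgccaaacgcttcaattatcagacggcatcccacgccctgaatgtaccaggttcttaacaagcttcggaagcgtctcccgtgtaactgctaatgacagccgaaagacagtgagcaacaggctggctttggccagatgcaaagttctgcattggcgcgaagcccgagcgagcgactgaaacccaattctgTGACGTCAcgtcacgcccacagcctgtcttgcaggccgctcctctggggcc
Cs: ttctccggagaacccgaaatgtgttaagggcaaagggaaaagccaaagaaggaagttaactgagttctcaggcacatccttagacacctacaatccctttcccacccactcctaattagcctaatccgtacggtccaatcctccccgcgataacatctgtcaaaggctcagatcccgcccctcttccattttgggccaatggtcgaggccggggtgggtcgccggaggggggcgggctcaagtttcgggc
Both motifs were searched on both strands, and a match is a string of letters, not a site shown to be bound. The first base of the NRF1 core lay at -17 from the Sucla2 start and the first base of the CRE at -51 from this Ogdh start. RefSeq gave 13 starts for 8 of the 9 enzymes, 6 of them for Ogdh and some of those overlapping. The NRF1 core was found before a start of Sucla2, Idh3g and Ogdh, that is in 4 of the 13 windows, against 5.19% of the 32851 mouse windows of the same length. The CRE was found for Ogdh and Mdh2, in 4 of the 13 windows, against 1.55%. By gene, the NRF1 core was found for 3 of 8 and the CRE for 2 of 8. Overlapping Ogdh windows held the same core or the same CRE, so the counts of windows repeat sites. They do not measure an enrichment over the share of all windows. The letters AAGGTCA, the core bound by oestrogen-related receptors, were in 0 of the 13 windows and in 4.08% of all. The 3 genes with an NRF1 core had ratios on both sides of NTG.

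Cs encodes citrate synthase, which joins acetyl-CoA to oxaloacetate. Its signal was 3340 in NTG and 2126 in L9 on the first array, and 3564 in NTG and 2645 in L19 on the second. Both TG signals were below both NTG signals. Cs was thus at 63.6% of NTG in L9 and 74.2% in L19, a log2 ratio of -0.65 and -0.43 (mean -0.54 ± 0.16, SD, n = 2 lines; 95% interval -0.90 to -0.18; limma adjusted p = 0.109). The mean stood at percentile 6.54 of all genes, and it was -0.053 after normexp.

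Isocitrate is oxidised by an NAD-dependent enzyme built from Idh3a, Idh3b and Idh3g and by the NADP-dependent Idh2, which supplies NADPH inside the mitochondrion. Idh3a, the catalytic subunit, had signals of 4029 in NTG and 3917 in L9, and of 3294 in NTG and 3268 in L19. Its log2 ratios, -0.041 and -0.012, were the closest to 0 of the 9 (mean -0.026 ± 0.020; 95% interval -0.34 to 0.29; limma adjusted p = 0.887), and its direction turned to higher after loess normalization (0.056) and after normexp background correction (0.46). Idh3g, a regulatory subunit, had signals of 5387 in NTG and 4342 in L9, and of 3887 in NTG and 3635 in L19. It stood at 80.6% of NTG in L9 and 93.5% in L19 (mean log2 ratio -0.20 ± 0.15; 95% interval -0.56 to 0.15; limma adjusted p = 0.330), but was higher (0.28) after normexp.

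Idh2 had signals of 9767 in NTG and 7945 in L9, and of 6242 in NTG and 5893 in L19. Its log2 ratios were -0.30 and -0.083 (mean -0.19 ± 0.15; 95% interval -0.55 to 0.16; limma adjusted p = 0.356), with the direction reversed after normexp (0.30). For Idh2, Idh3a and Idh3g the 2 readings of the NTG RNA differed more than TG and NTG did within an array. The NTG reading of Idh2 was higher by 0.65 on the log2 scale on the L9 array, and that of Idh3g by 0.47, while over all genes the SD of that difference was 0.27. For these 3 genes L9 gave a higher TG signal than L19, and yet a lower ratio.

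Oxoglutarate dehydrogenase turns 2-oxoglutarate into succinyl-CoA and consists of the E1 subunit Ogdh, the E2 subunit Dlst and the E3 subunit Dld. Ogdh had signals of 1618 in NTG and 940.05 in L9, and of 1902 in NTG and 1312 in L19. Both TG signals were below both NTG signals, as for Cs. Ogdh stood at 58.1% of NTG in L9 and 69.0% in L19, the lowest of the 9 enzymes in each line (log2 ratios -0.78 and -0.54, mean -0.66 ± 0.18; 95% interval -1.03 to -0.29; limma adjusted p = 0.0984; percentile 3.96 of all genes). The mean of Ogdh stayed below NTG in every setting tried, at -0.17 after normexp, as did that of Cs, at -0.053. After normexp only 1 of the 9 enzymes lay below NTG in both lines, so Ogdh and Cs did not both do so there.

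Succinyl-CoA ligase makes ATP or GTP at the substrate level. Its alpha subunit Suclg1 pairs with the beta subunit Sucla2 in the ATP-forming enzyme and with Suclg2 in the GTP-forming one. Sucla2 had signals of 1347 in NTG and 2133 in L9, and of 1449 in NTG and 2202 in L19. Both TG signals were above both NTG signals, and the lines were nearly alike. Sucla2 was 1.58-fold higher than NTG in L9 and 1.52-fold higher in L19 (log2 ratios 0.66 and 0.60, mean 0.63 ± 0.042; 95% interval 0.32 to 0.95; limma adjusted p = 0.0916; percentile 92.5 of all genes), and stood above NTG in every setting tried. The ratios lay just past the cutoff of 1.5-fold.

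Suclg1, the partner of Sucla2, had signals of 9410 in NTG and 7859 in L9, and of 8479 in NTG and 7050 in L19. It was at 83.5% and 83.1% of NTG, the smallest gap between the lines of all 9 enzymes (log2 ratios -0.26 and -0.27, mean -0.26 ± 0.0046; 95% interval -0.58 to 0.052; limma adjusted p = 0.208), and turned to higher (0.23) after normexp. The log2 ratio of Sucla2 exceeded that of Suclg1 by 0.92 in L9 and by 0.87 in L19, and the mean of these differences over both lines (0.90) lay between 0.79 and 0.90 over the settings tried.

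Fh1, fumarase, and Mdh2, mitochondrial malate dehydrogenase, close the cycle. Fh1 had signals of 2799 in NTG and 2482 in L9, and of 2749 in NTG and 2560 in L19. Its log2 ratios were -0.17 and -0.10 (mean -0.14 ± 0.050; 95% interval -0.46 to 0.18; limma adjusted p = 0.443), and 0.34 after normexp. Both TG readings of Fh1 were below both NTG readings, although at 88.7% and 93.1% of NTG.

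Mdh2 had signals of 11856 in NTG and 10641 in L9, and of 12133 in NTG and 11551 in L19. It stood at 89.8% and 95.2% of NTG (mean log2 ratio -0.11 ± 0.060; 95% interval -0.44 to 0.21; limma adjusted p = 0.524), and turned to higher after normexp (0.38) and after loess (0.054). For 6 of the 9 enzymes, all but Cs, Ogdh and Sucla2, the 95% interval crossed 0.

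The median log2 ratio of the 9 enzymes was -0.19 (L9 alone -0.26, L19 alone -0.097), beside -0.013 for all genes, and turned to 0.30 after normexp. Ratios on an array can drift with signal, so genes of like signal were taken as a further reference. Among 489 genes of like signal the median was -0.060 and the quartiles were -0.28 and 0.15, so that 6 of the 9 enzymes lay between the quartiles and Cs, Ogdh and Sucla2 outside them. After normexp the median of these 489 genes was 0.41, above that of the enzymes (0.30). The spread over the 9 enzymes (SD 0.41 in L9 and 0.32 in L19) was below that over all genes (0.49 in each line). All genes include weak probes, while every enzyme signal was at least 21.6 times the detection limit, so these spreads are not of like signal. The enzymes were lower in L9 than in L19 in 7 of 9 cases, against 49.5% of all genes, with a median difference of -0.085, while Suclg1 and Sucla2 were slightly higher in L9. The lines were not tested against each other, since each was 1 RNA sample.

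**Figure D2:**
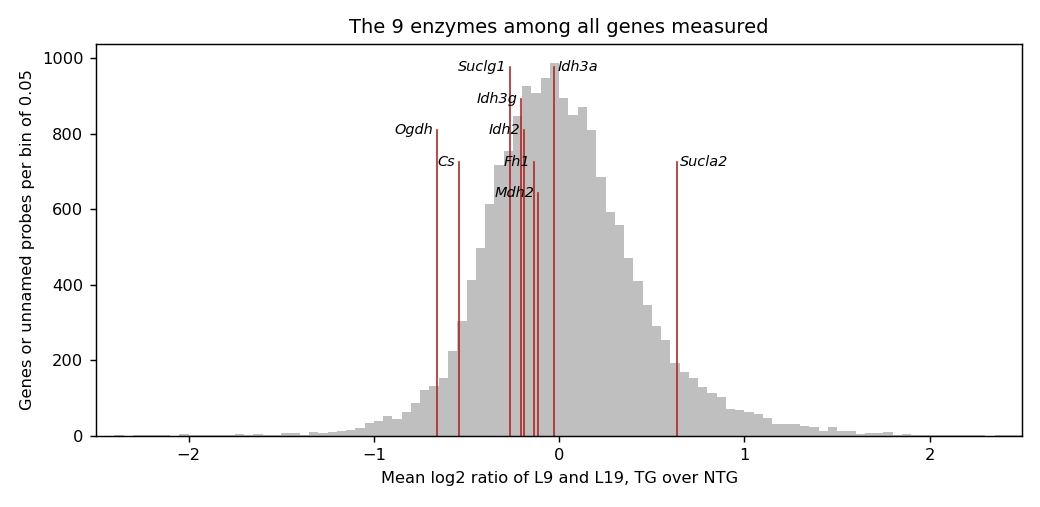
Distribution of the mean log2 ratio over 17482 genes or unnamed probes (grey, bins of 0.05), with a red line at each of the 9 enzymes, whose heights only separate the names. Ogdh (percentile 3.96), Cs (percentile 6.54) and Sucla2 (percentile 92.5) lie toward the edges, and the other 6 lie in the body of the distribution.

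The other genes of the cycle described here were 8, each with 1 probe that was measured on both arrays. Of the 8, 5 lay below NTG in both lines and 2 above, none was past 1.5-fold in both lines, and limma called none at an adjusted p of 0.05. With trend and robust estimation limma called 2 of the 8 lower, Idh3b (adjusted p = 0.0086) and Sdhd (adjusted p = 0.0131), beside 9.59% of all genes. Their median was -0.23 (L9 alone -0.27, L19 alone -0.14), close to the median of the 9 enzymes. After normexp it was 0.25.

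Idh3b, the third subunit of the NAD-dependent isocitrate dehydrogenase, had the lowest ratio of the 8. Its signals were 6855 in NTG and 4586 in L9, and 7685 in NTG and 5896 in L19. The log2 ratios were -0.58 and -0.38 (mean -0.48 ± 0.14; limma adjusted p = 0.120), just short of 1/1.5 in L9, and the mean was 0.0082 after normexp. Within the enzyme, Idh3b lay below the catalytic subunit Idh3a by 0.54 in L9 and 0.37 in L19 on the log2 scale, and Idh3g lay between them.

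The other subunits of oxoglutarate dehydrogenase did not share the ratio of Ogdh. Dlst had log2 ratios of -0.038 and 0.093 and Dld, which also serves pyruvate dehydrogenase, of 0.22 and 0.20 (limma adjusted p = 0.273 for Dld). The difference of Ogdh from Dlst was -0.75 in L9 and -0.63 in L19, and the mean over both lines (-0.69) lay between -0.71 and -0.67 over the settings tried. Suclg2, the GTP-specific beta subunit, had log2 ratios of -0.26 and -0.19, almost those of Suclg1. Sucla2 exceeded Suclg2 by 0.92 in L9 and 0.80 in L19. No test was run on differences between 2 probes.

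Succinate dehydrogenase, the membrane-bound step that is also complex II of the respiratory chain, has 4 subunits. The flavoprotein Sdha had log2 ratios of -0.36 and -0.095, and the iron-sulphur subunit Sdhb of -0.28 and -0.20. Of the membrane anchors, Sdhd had -0.37 and -0.39 and Sdhc 0.090 and 0.18. Thus 3 of the 4 subunits lay below NTG and 1 lay above, but after normexp the mean ratios of all 8 genes of the list were above 0, from 0.0082 for Idh3b to 0.69 for Dld.

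**Figure D3:**
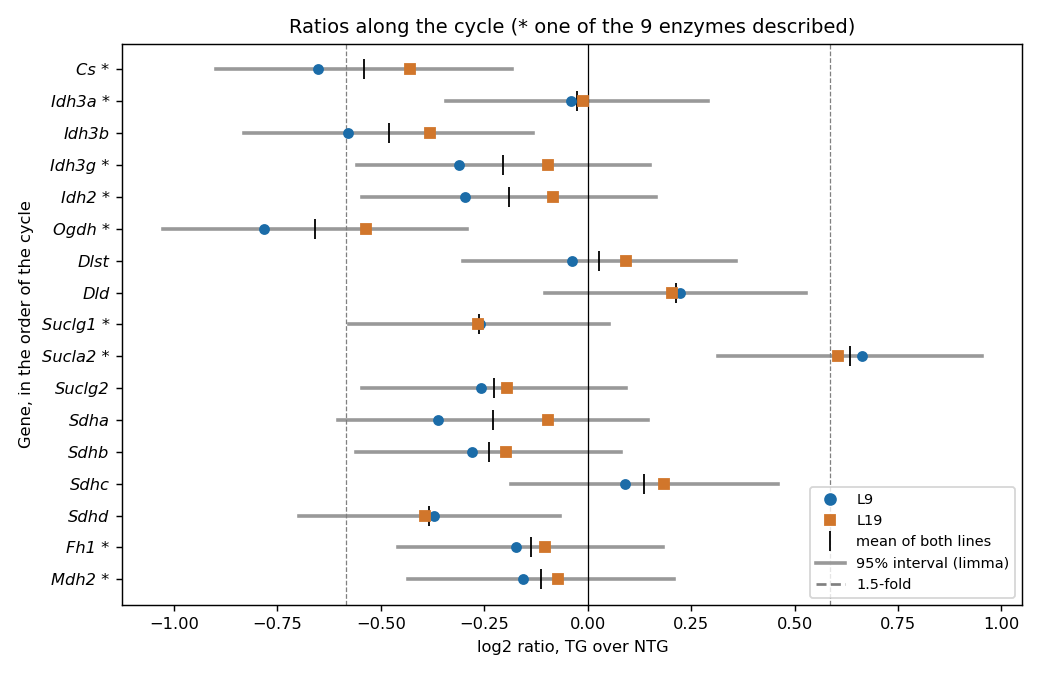
Log2 ratio of TG over NTG in L9 (circles) and L19 (squares) for 17 genes of the cycle in the order of their steps, with the mean (tick), the 95% interval from limma (grey bar) and 1.5-fold in either direction (dashed lines); asterisks mark the 9 enzymes described. Ogdh and Cs stand lowest and Sucla2 highest, and the intervals of 6 of the 9 enzymes cross 0.

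The steps around the cycle were read from further lists. The 6 genes that bring pyruvate into the cycle had a median of -0.020, and 3 of them were above NTG and 3 below it in each line. Mpc1, a subunit of the mitochondrial pyruvate carrier, was under 1/1.5 in both (log2 ratios -0.998 and -0.78), from NTG signals of 53.7 and 52.7. The 6 kinases and phosphatases of pyruvate dehydrogenase had a median of -0.12, with 2 above and 1 below in both lines.

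Among 8 measured genes that fill or drain the cycle the median was -0.014, with 1 above and 2 below in both lines. Pcx, pyruvate carboxylase, which makes oxaloacetate, was under 1/1.5 in both (-0.99 and -0.62), from NTG signals of 63.5 and 65.0. The 4 cytosolic counterparts had a median of 0.067 (2 above, 1 below) and the 6 carriers of cycle intermediates one of 0.025 (2 above, 2 below). Of 5 measured relatives and cofactor enzymes (median 0.014; 1 above, 2 below), Sirt3, a mitochondrial deacetylase that acts on several of these enzymes, Idh2 among them, was over 1.5-fold in both lines (0.66 and 0.70). The 13 measured genes of mitochondrial structure and protein import had a median of 0.098, and 7 of them stood above NTG in both lines, 2 below, and none past 1.5-fold. After normexp the medians of these 7 lists lay between 0.18 and 0.53. In these lists limma called no gene at an adjusted p of 0.05, and it called none on the whole array either. With trend and robust estimation limma called Sirt3 higher (adjusted p = 0.0025), and Mpc1 (0.0039) and Pcx (0.0067) lower. Other genes of these lists were called in both directions, beside 10.5% of all genes higher and 9.59% lower.

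The tissue and its cell types were checked with marker genes. Of the cardiomyocyte markers listed, 11 had a probe named here, all of these were detected in every channel, and 9 of the 11 lay below NTG in both lines and 1 above. Their median was -0.53 (L9 alone -0.60, L19 alone -0.46; range -1.22 to 0.39 in L9 and -1.20 to 0.31 in L19). Their summed signal went from 228934 to 136292 in L9 and from 238703 to 156515 in L19. Mb (myoglobin), Myh6 (alpha myosin heavy chain), Ryr2 (the calcium release channel) and Myl2 (a ventricular myosin light chain) were under 1/1.5 in both lines, with Myh6 at -0.99 and -0.63. The median of these markers, too, was near 0 after normexp (-0.043). Fibroblast markers were above NTG in both lines for 11 of 12 (median 0.68; range 0.53 to 3.06 in L9 and -0.018 to 1.80 in L19; summed signal from 7595 to 13593 in L9 and from 9430 to 14814 in L19). Postn (3.06 and 1.80), Mfap5 (1.71 and 1.22) and Lum (1.35 and 0.92), all of the extracellular matrix, led them, and Col1a1 (collagen) was at 0.91 and 0.081. Markers of endothelial cells had a median of -0.43 (8 measured), of smooth muscle -0.066 (5), of macrophages -0.060 (7) and of adipocytes -0.90 (3). The measured markers of cardiomyocytes and fibroblasts were detected in every channel, although some ratios were near the NTG level, such as Col1a1 in L19 (0.081). The median of the cycle enzymes lay between those of cardiomyocyte markers and of all genes, but after normexp it lay above both (0.30, against -0.043 and 0.018). It lay below the median of 489 genes of like signal both as reported (-0.19 against -0.060) and after normexp (0.30 against 0.41). The part of cell composition in the ratios of the enzymes was not tested.

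**Figure D4:**
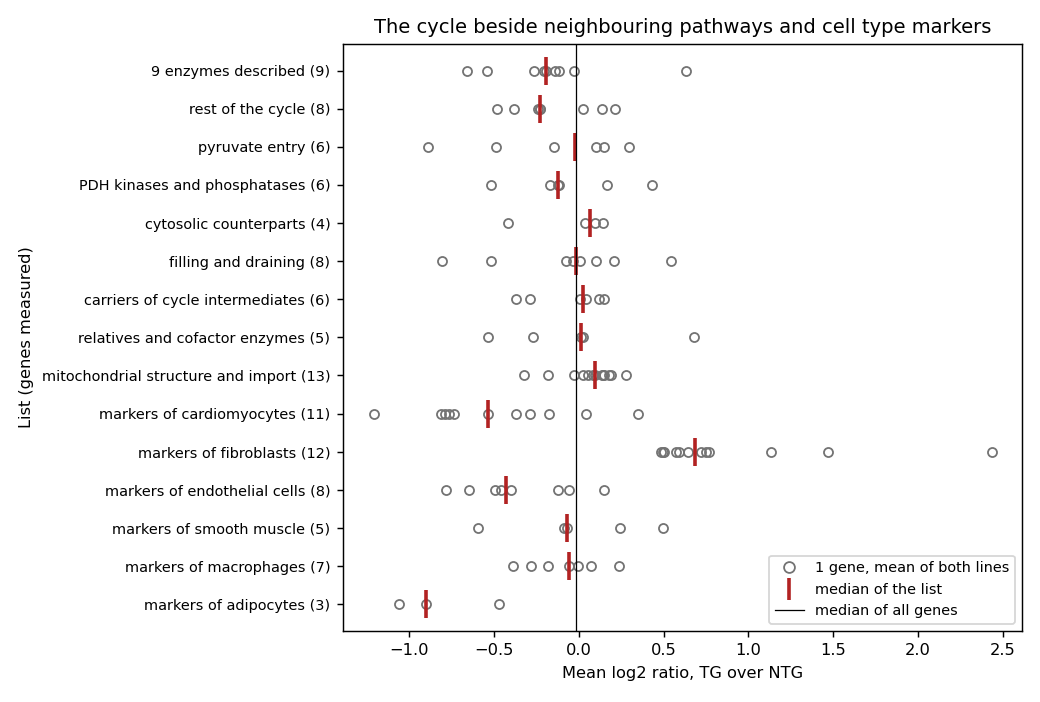
Mean log2 ratio of TG over NTG for each measured gene (open circles) and the median (red tick) of each list, with the number of genes measured in parentheses and the median of all genes as a vertical line. The 9 enzymes (median -0.19) and the rest of the cycle (median -0.23) lie between the cardiomyocyte markers (median -0.53) and the genes of mitochondrial structure and import (median 0.098), and the fibroblast markers (median 0.68) lie to the right; after normexp these medians were 0.30, 0.25, -0.043, 0.53 and 1.04.

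The direction of the small differences rested on the background correction and the normalization. With normexp correction in place of the subtraction of blank spots, 7 of the 9 enzymes were above NTG and called higher by limma, as were 30.5% of all genes (13.1% lower), and the median of the 489 genes of like signal moved from -0.060 to 0.41. Relative to genes of like signal, a reference chosen after the values were seen, the median of the enzymes was -0.16, and -0.14 after normexp. The order at the ends was kept in all settings shown, with Ogdh lowest, Cs next and Sucla2 highest. When limma was run with a trend of variance over signal and robust estimation, 4 enzymes passed an adjusted p of 0.05, namely Sucla2 (higher, 0.0027) and Ogdh (0.0039), Cs (0.0068) and Suclg1 (0.0417) (lower), beside 10.5% of all genes higher and 9.59% lower.

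**Figure D5:**
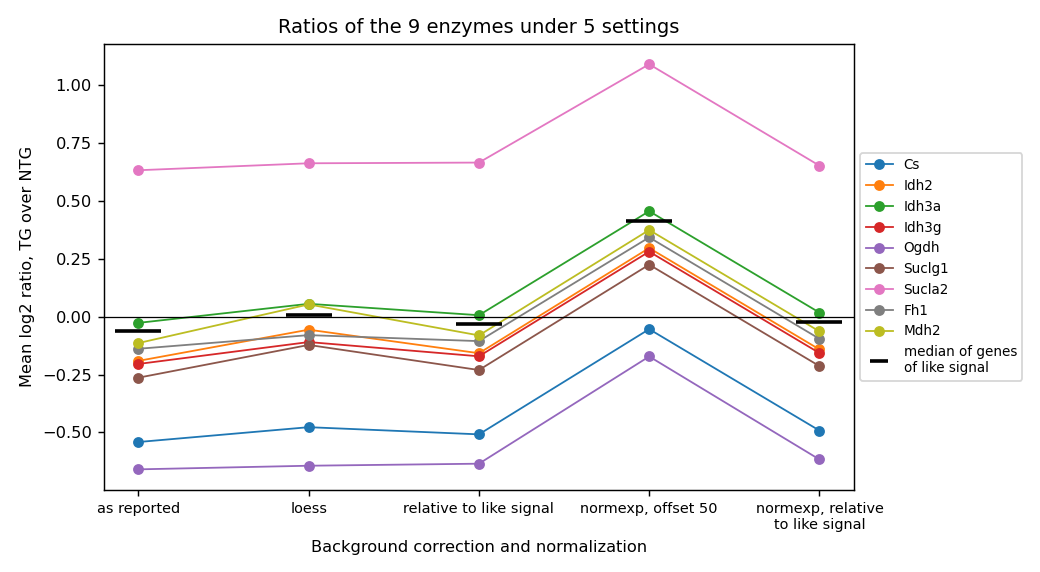
Mean log2 ratio of TG over NTG of each enzyme under 5 combinations of background correction and normalization, with black bars at the median of 489 genes of like signal. Under normexp the enzymes and the genes of like signal (median 0.41) shift up together, and Sucla2 stays highest and Ogdh and Cs lowest.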

How the data were processed

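Hearts of NTG and TG mice (L9 and L19) were compared on 2 two-colour arrays of 27456 spots each. The deposited scanner files give the intensity of each spot in both channels, without normalization. The authors' deposited table gives the log2 ratio of Cy3 over Cy5, corrected with blank spots and scaled to a median ratio of 1. The feature extraction software is named without a version in the study's methods, and no column of fold changes or p-values was used.

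From the intensities, the mean of 2736 blank spots (5% trimmed) was subtracted, probes above that mean plus 2 SD in both channels were called detected (18439 in L9 and 18822 in L19), and ratios were scaled to a median of 1. The median ratio before scaling was 2.02 (L9) and 1.83 (L19). Of 18438 and 18821 probes set against the deposited log2 ratios, 18437 and 18820 matched within 0.001. Spots marked as bad were left out (9 and 3). Every signal of the 9 enzymes was at least 21.6 times the detection limit and none was saturated; the number of arrays limits the precision. For a gene with several probes, the brightest stood for it. Symbols came from the platform annotation (16631 probes with 1 symbol used, 6842 without), and 3947 were updated through RefSeq.

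The test of a log2 ratio differing from 0 used lmFit and eBayes of limma (version 3.58.1, R version 4.3.3), with Benjamini-Hochberg adjustment over 17482 genes, on 2 lines against 1 control RNA. Such p-values leave out the spread of the control, and nothing shows how far a second mouse of a line would differ. This test was first tried on simulated data of known answer. The simulated lines were drawn independently, so that trial did not cover errors that both lines share through the NTG RNA and the dyes. Python 3.11.15, pandas 2.3.3 and matplotlib 3.10.9 made the tables and plots. The genes named are all 9 enzymes, the rest of the cycle, and of other lists up to 4 genes past 1.5-fold the same way in both lines; of marker lists, Myh6, Col1a1 and up to 3 others. Members and lists were chosen with earlier results of these data known. Promoter sequences are from RefSeq (GRCm38.p6). Alternatives were normexp (offset 50), loess, the deposited table, no detection filter, scaling on the brighter 50% of probes, fold cutoffs of 1.3 and 2, limma with trend and robust estimation, the mean of all probes and each line alone.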

Additional observations from a re-analysis of the deposited data

Results flagged for a closer look

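Dlst, the E2 subunit of oxoglutarate dehydrogenase, was the only gene of the cycle that lay on opposite sides of NTG in the 2 lines, below it in L9 (log2 ratio -0.038) and above it in L19 (log2 ratio 0.093). This difference was not tested, because each line was 1 RNA sample. All 9 enzymes kept the same sign in both lines.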

How the results depend on the processing

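After normexp the median of the 9 enzymes was 0.30, and the means were 0.30 for Idh2, 0.46 for Idh3a, 0.28 for Idh3g, 0.23 for Suclg1, 0.34 for Fh1 and 0.38 for Mdh2; 1 enzyme lay below NTG in both lines (loess 5; 7 with no detection filter or relative to genes of like signal; 8 as reported), and 0 of the rest of the cycle. The share of all genes below NTG in both lines was counted only as reported (38.4%). Loess gave 0.056 for Idh3a, 0.054 for Mdh2 and -0.079 for the median of the 9 enzymes. Relative to genes of like signal (the running median), a setting chosen after seeing the data, Idh3a was at 0.0070, and at 0.018 with normexp as well. A cutoff of 2 left 0 enzymes higher, and one of 1.3 gave 2 lower, with the share of all genes not counted at these cutoffs. Limma called 1 enzyme higher and 3 lower with trend and robust estimation, beside 10.5% and 9.59% of all genes. After normexp it called 7 higher, beside 30.5% of all genes. After normexp relative to genes of like signal it called 1 higher and 2 lower, and the share of all genes was not counted there. The cause of these shifts was not tested. With 1 line left out, the median ranged from -0.26 to -0.097 and the count of the rest of the cycle below NTG from 5 to 6, and the count under 1/1.5 from 0 to 2; the 2 (Cs and Ogdh) came from L9 alone, without L19. Each enzyme had 1 probe, so the choice of probe changed nothing.

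No paired analysis was possible because the only pairing, TG with NTG on an array, is already in each ratio, and NTG was 1 RNA. With 1 control RNA, 1 RNA per line and no dye swap, small differences and the spread of NTG hearts cannot be told apart.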
